A study of Rattus norvegicus with 24 samples.

Results

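The genes described here are 7 components and regulators of the complement system measured in the thyroid gland of rat pups: Cfb, C2, C3, C1r, C1s, Serping1 and Cfi. They were chosen by measured values of these data, Cfb because its signal was lower with acrylamide in morning females and the others as genes of the same cascade, and their probes were found by gene symbol among the non-control probes of the array. All 7 had a probe and C2 had a pair of probes, which gave 8 of 30367 probes and 7 of 26276 names on the array. All 8 probes were well above background on all 24 arrays and 0 of their values were saturated.

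Thyroid glands came from RccHan Wistar pups, with 4 arrays in each of 6 groups. Dams of the acrylamide groups drank water dosed at 3 mg acrylamide per kg body weight daily, starting on gestational day 6, and their pups stayed on this dose through postnatal day 35 ± 3; control groups drank tap water. Acrylamide is a small reactive molecule that binds thiol groups. The groups were acrylamide and control females at 10 PM (night), acrylamide and control males at 10 PM, and acrylamide and control females at 10 AM (morning). None of the 24 arrays came from males in the morning. Neither a transgene nor a mutation is named for any group. According to the protocol 5 pups of each sex were killed at each time, but the labels do not link arrays to pups or to litters. The p-values therefore reflect only the scatter among samples, which may be technical or lie within a litter.

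Complement is a cascade of plasma proteins that marks and lyses targets and calls in phagocytes. In the classical pathway the proteases C1r and C1s, held by C1q, cleave C4 and C2; in the alternative pathway factor B, the product of Cfb, takes the place of C2. Fragments of C2 and of factor B are the catalytic subunits of the C3 convertases, which cleave C3, while the product of Serping1, the C1 inhibitor, blocks C1r and C1s, and that of Cfi, factor I, inactivates cleaved C3 and C4 with cofactors. The liver makes most of the circulating proteins, and epithelial cells, fibroblasts and macrophages make several of them locally.

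The levels below are log2 processed signal minus the 75th percentile of the same array, so that 0 stands for that percentile. Levels of different probes are not set against each other, because a probe's brightness also depends on its sequence. The probe sequences on which the convertase and C1s results rest are printed in lower case with positions on the rn4 build as the array's design gives them. Exon and untranslated positions are not given, since no annotation of that build was used. The leading C2 probe lies at chr20:4071119-4071178 and the other C2 probe at chr20:4071504-4071563, both on the plus strand, with 325 bases between them. The C3 probe was placed at chrUn:64513437-64513496 and the C1s probe at chr4:160736725-160736784, both on the minus strand. For Cfb, on whose level much of what follows turns, the initial 30 of 60 bases of the probe at chr20:4077743-4077802 (plus strand) are shown.
C2 A_64_P222609: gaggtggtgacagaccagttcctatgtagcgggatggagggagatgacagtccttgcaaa
C2 A_44_P332606: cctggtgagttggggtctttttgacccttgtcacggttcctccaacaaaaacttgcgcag
C3 A_44_P1023538: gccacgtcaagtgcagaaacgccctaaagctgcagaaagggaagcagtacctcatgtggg
C1s A_44_P332422: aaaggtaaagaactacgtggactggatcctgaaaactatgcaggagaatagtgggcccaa
Cfb A_64_P029551: taaggagcttcctgctgggagggtgagggc
The Cfb probe lies 6179 bases from the nearer C2 probe, and the C1r probe (chr4:160728630-160728689) lies 8035 bases from that of C1s. In the RefSeq gene order of GRCr8, Cfb and C2 have 0 genes between them, and so do C1r and C1s. The Serping1 probe was placed at chr3:67968812-67968871 and the Cfi probe at chr2:227324985-227325044.

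Marker levels of several cell types differed between arrays, and this touches several results. Of 14 thyroid follicular markers, 13 were well above background on every array at night, so the labelled tissue was present there. In acrylamide females in the morning the mean level of these markers was -3.62 in replicate 1, with 9 of 14 well above background, and 0.98 to 1.74 in the other 3 arrays, against 1.72 to 2.14 in control females in the morning. In acrylamide males at night, replicate 4 had a mean of -0.91 over the 4 parathyroid markers, against 4.08 to 4.48 in the other 3 arrays and 3.90 to 4.64 in control males. Values without these 2 arrays are given where they move a result, but other arrays were also far from their group for a marker list. In the parathyroid list the morning means were -5.04, 3.11, -1.66 and 3.69 with acrylamide, against 0.05, 3.29, 3.31 and 3.48 in controls. T cell and granulocyte means were 0.34 and -0.89 in acrylamide replicate 2 of morning females, against at most -2.77 and -2.97 in controls of that time. Skeletal muscle markers had mean levels of 1.74 to 7.27 in acrylamide males and 6.65 to 7.71 in control males at night, and of 3.63 to 6.89 in acrylamide females and 6.53 to 7.17 in control females at night. In such bulk tissue fewer cells of a type and less RNA per cell cannot be told apart.

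At night the 2 convertase subunits Cfb and C2 had positive differences between acrylamide and control, and C3, C1r, C1s and Serping1 negative ones, in either sex, but none of these differences passed the test. Cfb stood at 5.35, 4.85, 4.82 and 4.79 in acrylamide females at night, against 4.28, 4.64, 4.63 and 4.64 in control females. All 4 acrylamide arrays lay above all 4 control arrays, with replicate 1 the highest in the acrylamide group and the lowest in the control group. The difference was 0.40 (SE 0.44, 1.32-fold, 95% interval -0.51 to 1.32, adjusted p = 1 in limma). The error is pooled over all 6 groups, among them the acrylamide females in the morning with an SD of 1.49. The SDs here were 0.27 in acrylamide and 0.18 in control females (n = 4 each). Over 10 other settings of the fit, among them the arrays of this comparison alone, the lowest adjusted p of this difference was 0.522 in limma. In males at night Cfb stood at 4.56, 4.97, 4.71 and 5.30 with acrylamide, against 4.11, 4.06, 4.81 and 4.18 in controls. Here the groups overlapped, because control replicate 3 lay above acrylamide replicates 1 and 3. The difference was 0.60 (SE 0.44, 1.51-fold, adjusted p = 0.514 in limma) and 0.46 without acrylamide replicate 4.

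C2, which supplies the catalytic subunit of the classical convertase, followed the same direction. Its leading probe had levels of 1.38, 1.22, 1.50 and 1.94 in acrylamide females at night, against 0.53, 1.28, 0.76 and 1.41 in control females. Acrylamide replicates 1 and 2 lay below control replicate 4, so the groups overlapped, and the difference was 0.52 (SE 0.23, 1.43-fold, unadjusted p = 0.035 and adjusted p = 1 in limma). In males it had levels of 1.04, 1.19, 1.41 and 1.28 with acrylamide, against 0.94, 0.83, 1.18 and 0.88 in controls, and acrylamide replicate 1 lay below control replicate 3. The difference in males was 0.27 (SE 0.23, adjusted p = 0.57 in limma). The other C2 probe gave 0.43 (SE 0.24) in females and 0.20 (SE 0.24) in males.

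**Figure D1:**
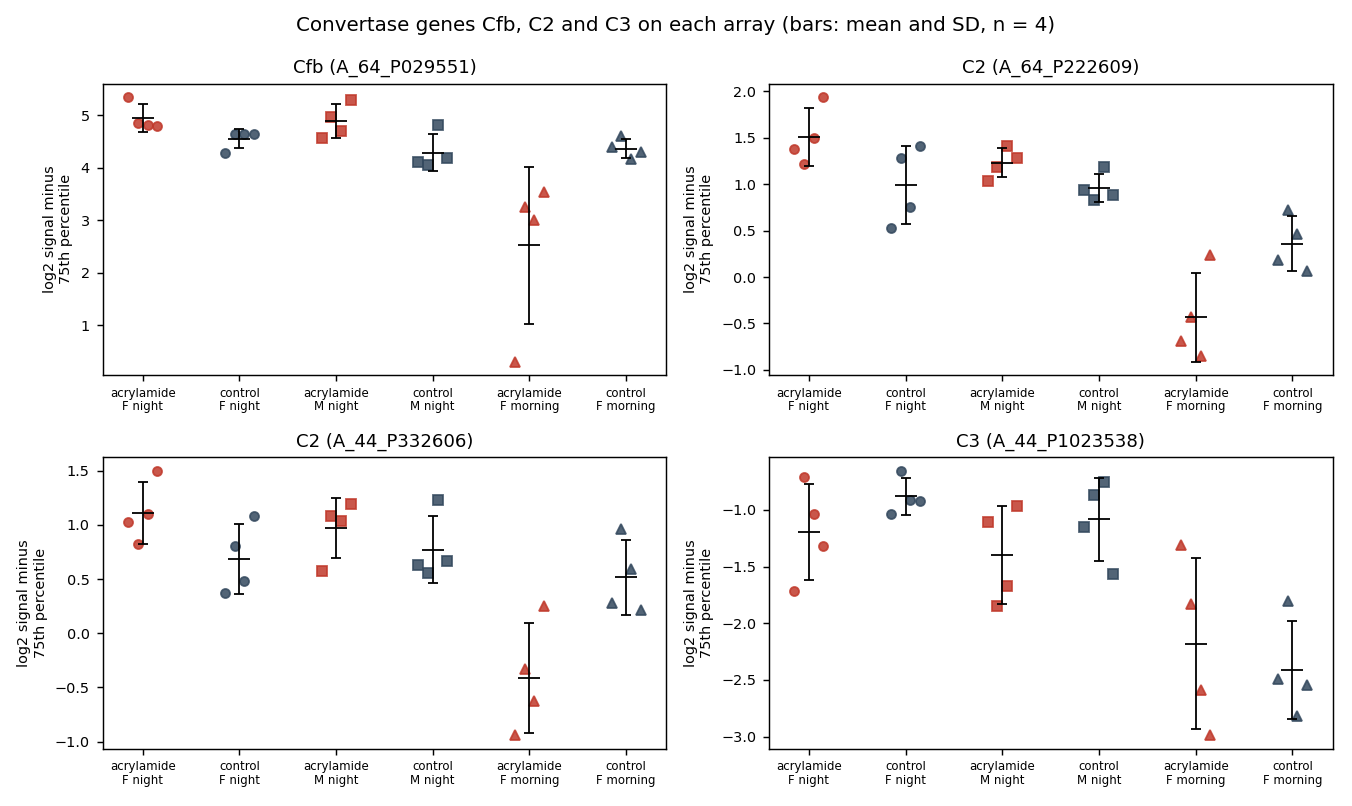
Level (log2 signal minus the array's 75th percentile) of Cfb, of C2 by 2 probes and of C3 on each array, with acrylamide groups in red and control groups in dark blue; F and M stand for female and male, and black bars are mean and SD (n = 4). Cfb in acrylamide females in the morning ran from 0.31 to 3.53, below all 4 control arrays (lowest 4.17), and C3 was higher in control females at night than in the morning.

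C3, the protein on which the pathways converge, had levels of -1.72, -0.71, -1.04 and -1.32 in acrylamide females at night, against -1.03, -0.65, -0.92 and -0.93 in control females. In males it had -1.10, -1.85, -1.67 and -0.96 with acrylamide, against -1.15, -0.87, -0.75 and -1.57 in controls. The groups overlapped in each sex, and the difference was -0.31 in females and -0.31 in males (SE 0.32 each). The C1 proteases had negative differences too. C1r stood at 0.63, 0.80, 0.87 and 1.57 in acrylamide females, against 1.36, 1.51, 1.32 and 1.06 in control females, and 3 of the 4 acrylamide arrays lay below every control array while replicate 4 lay above them all. In males it stood at 0.75, 0.87, 1.03 and 0.61 with acrylamide, against 0.92, 1.43, 1.24 and 1.15 in controls, and again 3 acrylamide arrays lay below every control array. The C1r difference was -0.34 in females and -0.37 in males (SE 0.23 each).

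C1s, the partner of C1r in the C1 complex, stood at 0.26, 0.81, 0.74 and 1.65 in acrylamide females at night, against 1.13, 1.58, 1.42 and 0.86 in control females. In males it stood at 0.28, 0.01, 0.87 and -0.19 with acrylamide, against 0.78, 1.29, 0.84 and 0.69 in controls. As for C1r, acrylamide replicate 4 was the highest of all 8 arrays in females, and the difference was -0.38 in females and -0.66 in males (SE 0.32 each, lowest adjusted p = 0.369 in limma). Serping1, the inhibitor of both proteases, stood at 2.94, 3.42, 3.19 and 3.79 in acrylamide females, against 3.92, 3.79, 3.84 and 3.66 in control females. In males it stood at 3.26, 3.39, 3.44 and 3.07 with acrylamide, against 3.34, 3.90, 3.55 and 3.13 in controls. In females 3 of 4 acrylamide arrays lay below every control array, with a difference of -0.47 (SE 0.19, 0.723-fold, unadjusted p = 0.0249 and adjusted p = 1 in limma), and in males the difference was -0.19 (SE 0.19). Cfi, encoding factor I, had levels of -2.60 to -1.99 in acrylamide and -2.56 to -1.98 in control females, and of -2.29 to -1.54 in acrylamide and -2.76 to -1.61 in control males. Its groups overlapped almost wholly, with differences of -0.05 and 0.01 (SE 0.25 each). Leaving out single arrays moved several of these differences by much of their size. In females the C1s difference ran from -0.64 (without acrylamide replicate 4) to -0.18 (without acrylamide replicate 1), that of C1r from -0.54 to -0.23 by the same arrays, and that of C3 from -0.48 (without acrylamide replicate 2) to -0.14 (without acrylamide replicate 1). In males the C3 difference ran from -0.47 (without control replicate 4) to -0.16 (without acrylamide replicate 2), and that of Serping1 from -0.31 (without control replicate 4) to -0.051 (without control replicate 2).

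**Figure D2:**
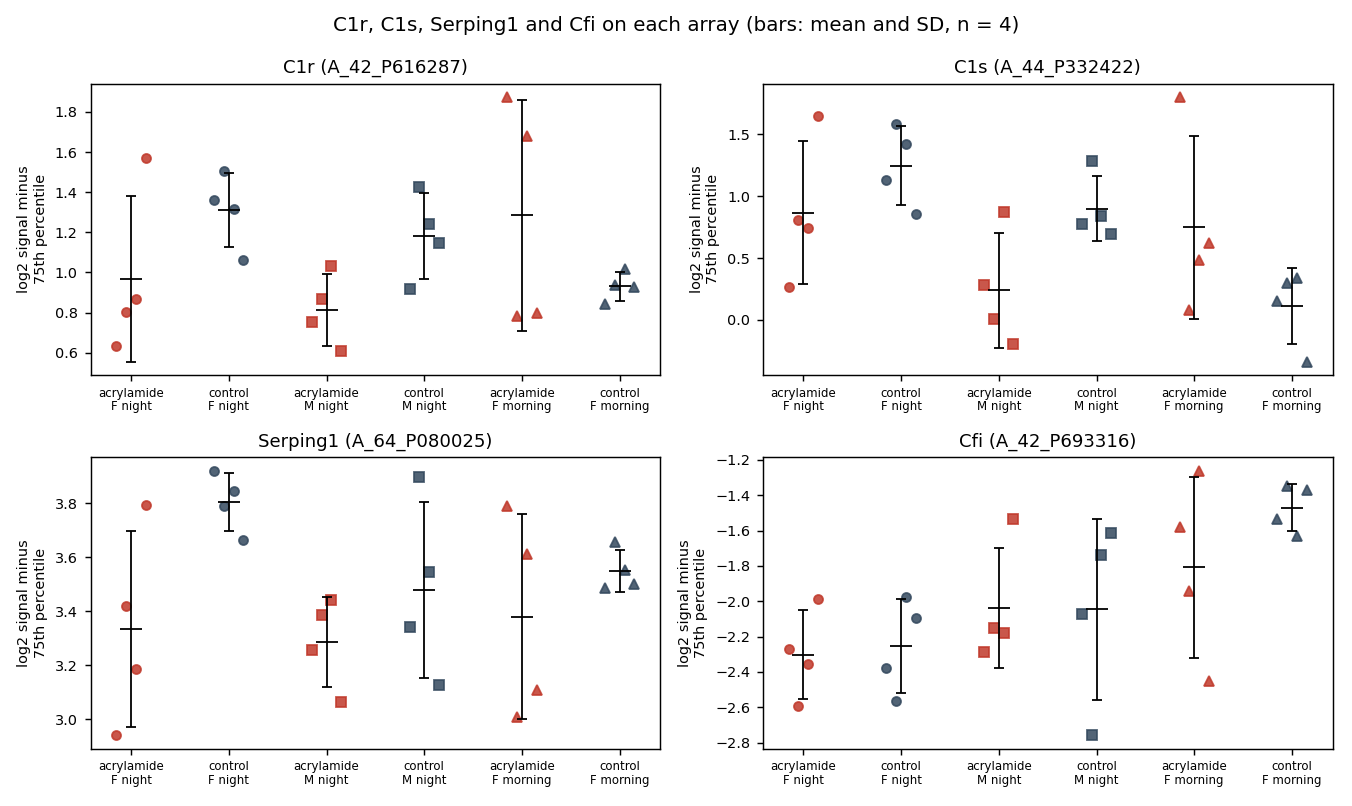
Level (log2 signal minus the array's 75th percentile) of C1r, C1s, Serping1 and Cfi on each array, with acrylamide groups in red and control groups in dark blue; F and M stand for female and male, and black bars are mean and SD (n = 4). In acrylamide females at night, replicate 4 lay above the other 3 arrays of its group for all 4 genes.

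In females at night 0 of the 8 probes passed an adjusted p of 0.05 in limma, as did 0% of the 23414 probes tested; at an unadjusted p under 0.05 there were 2 of 8, and 414 probes (1.77%) in all. The arrays did not overlap for 1 of 8 probes, that of Cfb, against 5.33% of all probes. In males at night 0 of 8 passed, again with 0% of all probes; at an unadjusted p under 0.05 there were 0 of 8 (13.7% of all probes), and the arrays overlapped for all 8 probes (4.34% of all probes did not overlap). The median over the 8 probes was -0.18 in females, beside 0.02 over all probes, and -0.09 in males, beside -0.01. At night all acrylamide arrays lie in row 2 and all control arrays in row 1 of their slide, so treatment and array row cannot be told apart. Whether the acrylamide effect differed between the sexes was tested directly: for the 8 probes the effect in males minus that in females ran from -0.28 to 0.28, and 0 of 8 passed in limma (0% of all probes); at an unadjusted p under 0.05 there were 0 of 8, beside 2.25% of all probes.

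In females in the morning Cfb and C2 lay on the other side of their controls. This comparison chose Cfb, so its values are a description with no test. Cfb stood at 0.31, 3.25, 3.00 and 3.53 with acrylamide, against 4.39, 4.6, 4.17 and 4.3 in controls, and all 4 acrylamide arrays lay below all 4 controls. Replicate 1, the array low in thyroid follicular markers, was far below the other 3. The difference was -1.84 (SE 0.44, 0.279-fold), and -1.11 without that replicate. The 8 morning arrays lie on 2 slides. Within slide 3 (2 acrylamide and 3 control arrays) the Cfb difference was -1.26, and within slide 4 (2 acrylamide arrays and 1 control) -2.38. With slide as a block it was -1.66. On slide 3 both acrylamide arrays and control replicate 2 lay in row 1, and control replicates 1 and 3 in row 2. On slide 4 every array lay in row 2. The part of array row was not tested.

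The leading C2 probe had levels of -0.69, -0.43, -0.85 and 0.24 with acrylamide in the morning, against 0.19, 0.73, 0.46 and 0.07 in controls, and the other probe -0.94, -0.33, -0.62 and 0.25, against 0.28, 0.96, 0.60 and 0.21. By either probe 3 of 4 acrylamide arrays lay below every control array. The differences were -0.79 and -0.93, and without acrylamide replicate 1 the leading probe gave -0.71. Within slide 3 the leading probe gave -1.10 and the other -1.09, and within slide 4 they gave -0.29 and -0.56. The C1 proteases had positive mean differences, but the C1r arrays split, with 2 acrylamide arrays above every control array and 2 below. C1s had levels of 1.80, 0.08, 0.48 and 0.62 with acrylamide, against 0.15, 0.30, 0.34 and -0.34 in controls, and C1r had 1.87, 0.78, 1.68 and 0.80, against 0.84, 0.94, 1.02 and 0.93. Replicate 1 was the highest array for both genes; the differences were 0.63 for C1s and 0.35 for C1r, and 0.28 and 0.16 without it. For C1s the difference was 0.02 within slide 3 and 1.55 within slide 4. Markers of oesophageal squamous epithelium had means of 0.79, -1.62, 1.39 and -3.06 with acrylamide, against -2.77, -1.99, -2.93 and -2.95 in controls. The arrays high in this list, acrylamide replicates 1 and 3, were also the highest in C1r and in Serping1 among the acrylamide arrays, and the part of this tissue in the differences was not tested.

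For C3 the morning levels were -1.31, -1.83, -2.59 and -2.99 with acrylamide, against -2.49, -1.80, -2.82 and -2.55 in controls. The difference was 0.24, and -0.05 without acrylamide replicate 1, so 1 array decides its sign. Serping1 had levels of 3.79, 3.01, 3.61 and 3.11 with acrylamide, against 3.49, 3.66, 3.55 and 3.50 in controls, with a difference of -0.17. Cfi had -1.58, -1.94, -1.26 and -2.45 with acrylamide, against -1.54, -1.35, -1.63 and -1.37 in controls, with a difference of -0.34. For both genes the acrylamide arrays spread around the controls, with SDs of 0.38 and 0.51 with acrylamide, against 0.08 and 0.13 in controls (n = 4 each). With single arrays left out the Serping1 difference ran from -0.30 (without acrylamide replicate 1) to -0.045 (without acrylamide replicate 2), and that of Cfi from -0.52 (without acrylamide replicate 3) to -0.12 (without acrylamide replicate 4). Of the 8 probes, 1 did not overlap in the morning, that of Cfb, beside 8.47% of all probes; over all probes limma called 1.83%. The median over all probes in this comparison was -0.10.

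**Figure D3:**
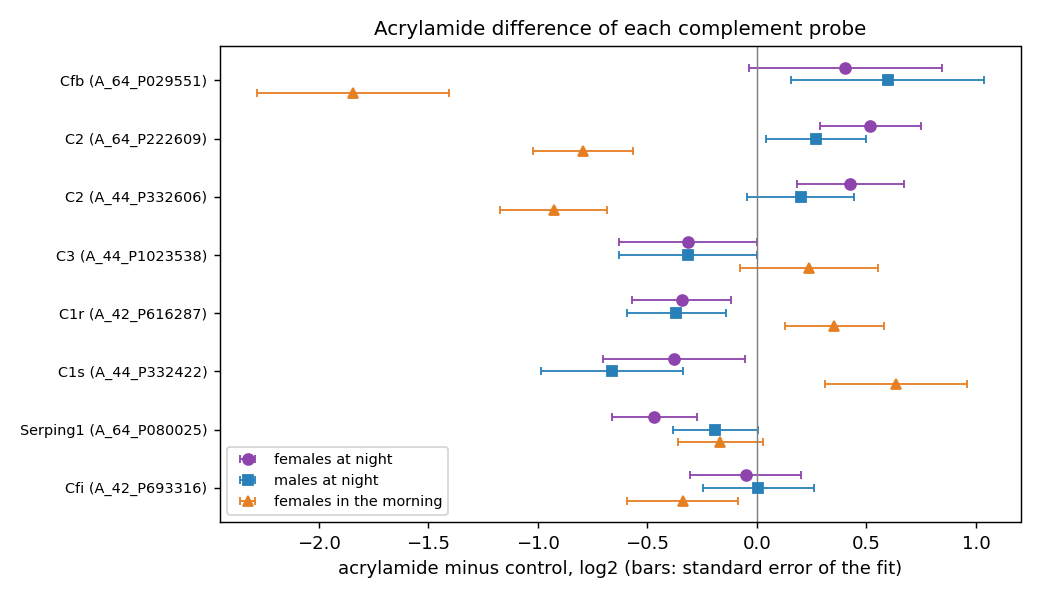
Acrylamide minus control (log2) for each complement probe in night females, night males and morning females; bars are the standard error of the fit (n = 4 against 4). Cfb and C2 have positive differences at night and negative ones in the morning, while C1r and C1s have negative differences at night and positive ones in the morning. None of the night differences passed in limma, and the morning values chose Cfb and carry no test. In the morning 2 acrylamide arrays lay above every control array for C1r and 2 below. Without acrylamide replicate 1 the morning differences were 0.16 for C1r and 0.28 for C1s.

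Means of thyroid and fibroblast markers are set beside these genes as a description. Between acrylamide and control the fibroblast ranges overlapped in every comparison, and the follicular ranges in females at night and in the morning. In the morning, where Cfb was lower with acrylamide, all 4 acrylamide arrays had thyroid follicular means of -3.62 to 1.74, against 1.72 to 2.14 in controls; at night, where Cfb had positive differences, these means were 2.04 to 2.44 in acrylamide and 1.97 to 2.21 in control females, and 2.14 to 2.66 in acrylamide and 1.83 to 1.97 in control males. At night, where C1r, C1s and Serping1 had negative differences, the mean of the 13 fibroblast and matrix markers (13 of 13 well above background on every array) was 2.47 to 3.20 in acrylamide and 3.03 to 3.50 in control females, and 2.16 to 3.12 in acrylamide and 2.78 to 3.26 in control males. In the morning it was 2.57 to 3.73 with acrylamide and 2.85 to 3.11 in controls. Hepatocyte markers were mixed: their list means ran from -5.59 to -4.20 in acrylamide groups and from -5.39 to -3.85 in control groups, with 3 to 7 of 10 well above background, but Ahsg (mean level 2.30), Alb (-0.70) and Serpina1 (-4.69) were so on all 24 arrays and Hpx on 18. The fibrinogen genes Fgb and Fga were well above background on 0 and 1 of 24 arrays, and the other 4 markers on 5 to 13. Macrophage means were -1.32 to -0.88 in acrylamide and -0.76 to -0.50 in control males at night, and the ranges overlapped in females at either time. The part of any of these markers in the differences was not tested.

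Within groups C1r, C1s and Serping1 varied together. Deviations from the group means, in which no group difference enters, were compared over 24 arrays for the 21 pairs of genes, and 3 pairs passed a permutation test with labels permuted within groups. C1r and Serping1 had r = 0.87 and rho = 0.87 (adjusted permutation p = 0.00115 and 0.00105), C1s and Serping1 r = 0.77 and rho = 0.70 (0.00115 and 0.00742), and C1s and C1r r = 0.77 and rho = 0.69 (0.00133 and 0.00742). Without the 2 arrays farthest from the median r was 0.81, 0.65 and 0.61 in the same order. Arrays high in a C1 protease thus tended to be high in the C1 inhibitor. Over the 16 night arrays alone, which did not choose Cfb, the same 3 pairs passed, with r = 0.82 for C1r and Serping1, 0.80 for C1s and Serping1 and 0.89 for C1s and C1r (adjusted permutation p = 0.0101, 0.00903 and 0.00546). Cfb ran the other way, at r = -0.66 with C1s, -0.60 with C1r and -0.53 with Serping1 over 24 arrays, a description since the morning arrays chose it. Over the night arrays these were -0.48, -0.32 and -0.40 and did not pass (adjusted permutation p = 0.461, 0.476 and 0.476). Cfb and its neighbour C2 had r = 0.37 over 24 arrays and 0.29 over the night arrays (adjusted permutation p = 0.476), while the pair of C2 probes had r = 0.91 over 24 arrays.

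**Figure D4:**
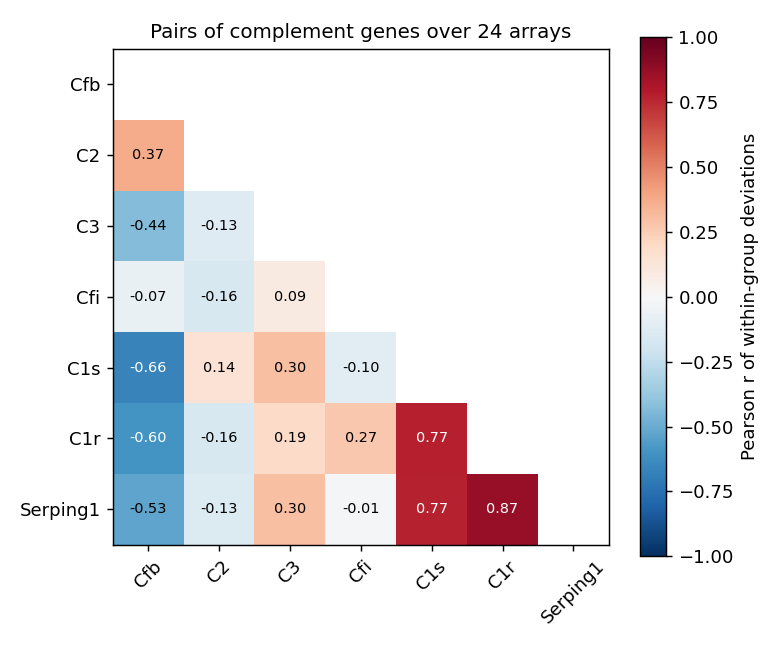
Pearson r of deviations from the group means for the 21 pairs of complement genes over 24 arrays (leading probes). The block of C1s, C1r and Serping1 stands at 0.77 to 0.87, and Cfb is negative with all 3.

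The same measure was taken between each member and the mean of each of 16 marker lists, 112 pairs in all, an analysis added after the values were seen. Over 24 arrays Cfb had r = 0.96 with the thyroid follicular mean, which is a description, since the low Cfb of the morning acrylamide arrays chose the gene and acrylamide replicate 1 of that group is the lowest in both. Over the 16 night arrays 2 of the 112 pairs passed by both r and rho. Cfb followed the thyroid follicular mean with r = 0.81 and rho = 0.80 (adjusted permutation p = 0.019 and 0.0291), and r = 0.67 without acrylamide replicate 4 of males and acrylamide replicate 1 of females. C1s followed the fibroblast and matrix mean with r = 0.86 and rho = 0.89 (adjusted permutation p = 0.0258 and 0.0291), and r = 0.82 without the same 2 arrays. C1r, with r = 0.81 and rho = 0.81, passed by r but not by rho (adjusted permutation p = 0.019 and 0.0508). Serping1 had r = 0.65 with that mean and did not pass (adjusted permutation p = 0.228), nor did C2, C3 or Cfi with any list. Over 24 arrays C1r had r = 0.89 and rho = 0.82 with the fibroblast and matrix mean and passed by both (adjusted permutation p = 0.00728 and 0.0414). C1s had r = 0.69 and rho = 0.59 with it over 24 arrays and did not pass (adjusted permutation p = 0.0679 and 0.25).

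**Figure D5:**
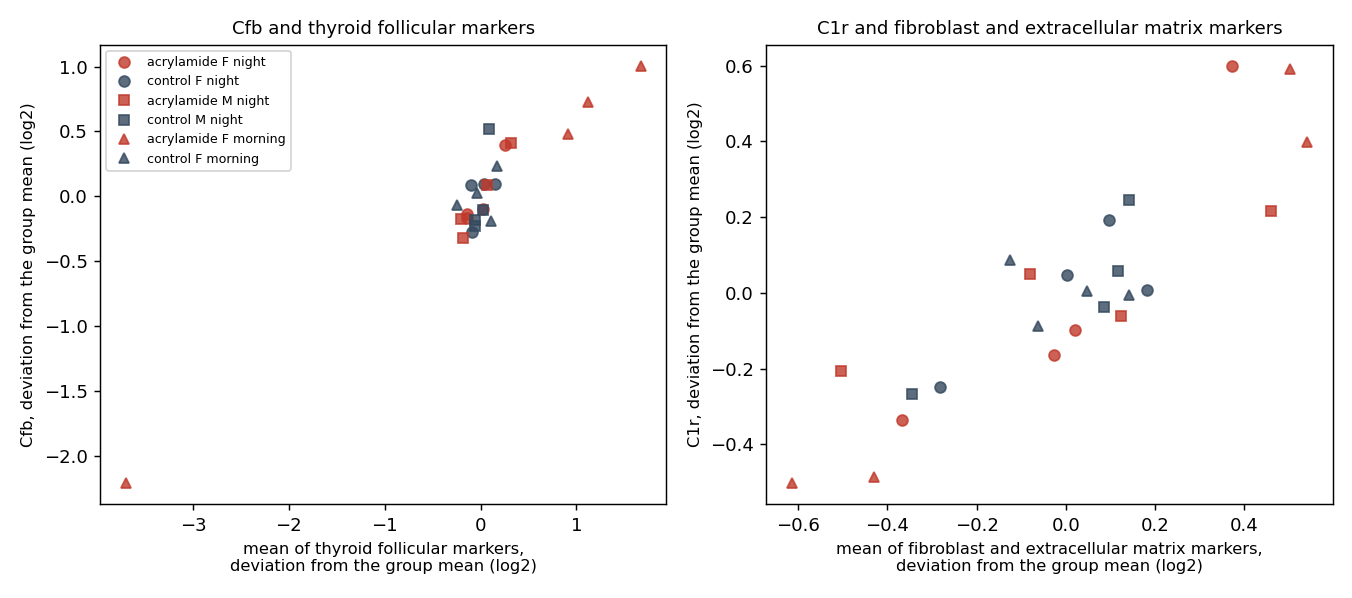
Deviation from the group mean (log2) of Cfb against that of the mean thyroid follicular marker level (left), and of C1r against that of the mean fibroblast and matrix marker level (right), 1 point an array (24 arrays). The lowest point on the left is acrylamide replicate 1 of females in the morning. On the left r is 0.96, a description since the morning values chose Cfb, and 0.81 without acrylamide replicates 1 and 4 of that group. On the right r is 0.89.

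The 10 probes of other genes whose deviations were most like those of Cfb had r of 0.96 to 0.98 over 24 arrays, which is a description. Cd24, a surface glycoprotein, came first (r = 0.98), and Iyd, which recovers iodide from iodotyrosines and is itself among the follicular markers, was also among the 10 (r = 0.97). Others were Acot1, an acyl-CoA thioesterase, Slc23a1, an ascorbate transporter, Spon1 and Tlcd1. These values lean on acrylamide replicate 1 of females in the morning: without it they were 0.76 to 0.85, and of the 10 most alike over the other 23 arrays Cd24, Iyd and LOC690120 were also among those above.

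In control females, night against morning, C3 and C1s were higher and Cfi was lower at night. These samples differ in slide and scan session as well as in time, which cannot be told apart, and the morning controls also enter the comparison that chose Cfb. C3 stood at -1.03, -0.65, -0.92 and -0.93 at night, against -2.49, -1.80, -2.82 and -2.55 in the morning. All night arrays lay above all morning arrays, and the difference was 1.53 (SE 0.32, 2.89-fold, adjusted p = 0.00043 in limma). C1s was higher at night by 1.13 (SE 0.32, 2.19-fold, adjusted p = 0.00665 in limma) and the leading C2 probe by 0.63 (SE 0.23, adjusted p = 0.0278), while the other C2 probe gave 0.17 (SE 0.24, adjusted p = 0.595). The C2 call is therefore not shared by its probes, and it was lost without control females at night replicate 2 or 4 or in the morning replicate 1 or 4 (adjusted p = 0.0884, 0.105, 0.0716 and 0.0882 in limma).

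Cfi fell by 0.78 at night (SE 0.25, 0.582-fold, adjusted p = 0.0147 in limma), with levels of -2.38, -2.56, -1.98 and -2.09 at night, against -1.54, -1.35, -1.63 and -1.37 in the morning, all night arrays below all morning arrays. The call was lost without control females at night replicate 2 (adjusted p = 0.0521 in limma). C1r (0.38, SE 0.23) and Serping1 (0.26, SE 0.19) did not pass, though their night arrays all lay above the morning ones. Cfb, at 4.55 ± 0.18 at night and 4.37 ± 0.18 in the morning (SD, n = 4 each), differed by 0.18 (SE 0.44). Of the 8 probes 4 passed, beside 47.6% of all probes, and 5 did not overlap, beside 56.5%, so the members' shares lay near those of the whole array. In control males against control females at night 0 of 8 probes passed in limma, beside 0.00854% of all probes. At an unadjusted p under 0.05 in limma there were 0 of 8, beside 1.61%, with differences of -0.34 for C1s to 0.21 for Cfi. At night all female arrays lay on slide 1 and all male arrays on slide 2, so sex and slide cannot be told apart.

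Of 52 other complement genes listed, 44 had a probe and 33 were tested, and with acrylamide 0 of 33 passed in limma in any of the 3 comparisons, beside 0%, 0% and 1.83% of all probes. Their median difference was -0.08 in females at night (11 positive, all probes 0.02), -0.16 in males at night (14 positive, all probes -0.01) and -0.14 for morning females (15 positive, all probes -0.10). Among the largest differences that did not pass was Masp1, a protease of the lectin pathway, with -1.05 in females at night, -1.92 in males at night and 1.64 in morning females (SE 0.88 each). Cd55, which speeds the decay of convertases, had -0.75, -1.07 and 1.13 in the same order (SE 0.44 each). C4bpa, a chain of the C4b-binding protein, had 0.50, 1.49 and -1.40 (SE 0.74 each). C1qc, a chain of C1q, had -0.50, -0.89 and 0.51 (SE 0.30 each). C5, the precursor of an anaphylatoxin, had -0.87 in night females and 0.74 in night males (SE 0.34 each), but was well above background on 1 of 4 acrylamide and 4 of 4 control arrays in females. Cd46, a membrane cofactor of factor I, had 0.52 in night females (SE 0.31). C9, which forms the lytic pore, had -1.38 in females in the morning (SE 0.49, adjusted p = 0.114 in limma), with 2 of 4 acrylamide and 4 of 4 control arrays well above background.

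Between night and morning in control females 12 of the 33 were higher and 5 lower at night (51.5% called; of all probes 21% were called higher and 26.6% lower). The C1q chains C1qa (0.85, SE 0.21), C1qb (0.95, SE 0.23) and C1qc (1.52, SE 0.30) were higher at night, as was Cfp, encoding properdin, which stabilises the alternative convertase (1.25, SE 0.18). Clu, encoding clusterin (0.94, SE 0.20), C7, a component of the lytic complex (0.69, SE 0.25), C8g (0.50, SE 0.14), C4bpb (0.81, SE 0.24), Cr1l, a membrane regulator of convertases (0.45, SE 0.18), C1qbp (0.44, SE 0.13) and Susd4 (2.31, SE 0.43) were also higher. Lower at night were C8b (-2.06, SE 0.23), Fcnb, a ficolin that starts the lectin pathway (-1.68, SE 0.33), Itgam, a chain of complement receptor 3 (-1.16, SE 0.27), Cd93 (-0.65, SE 0.14) and C9. C9 was well above background on 0 of 4 night arrays and 4 of 4 morning arrays, and so was at least 10.6-fold lower at night (adjusted p = 3.94e-07 in limma). Susd4 was well above background on 2 of 4 morning arrays and C8b on 2 of 4 night arrays.

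A list of 30 regulators held transcription factors, cytokine receptors and inhibitors of signalling, of which 29 had a probe and 27 were tested. With acrylamide 0 of 27 passed in limma in any of the 3 comparisons, beside 0% of all probes in night females and night males and 1.83% in morning females. Their medians were -0.04 in night females (all probes 0.02), 0.04 in night males (all probes -0.01) and -0.21 in morning females (all probes -0.10). In morning females the largest differences that did not pass in limma were those of Il1r1, a receptor of interleukin 1 (-1.34, SE 0.36, adjusted p = 0.0565, 2 of 4 acrylamide arrays well above background), Hnf4a, a nuclear receptor of liver and epithelia (-0.91, SE 0.28, adjusted p = 0.0795), the bile acid receptor Nr1h4 (-0.87, SE 0.47) and the transcription factor Cebpd (0.75, SE 0.31). In night males large differences were those of the estrogen receptor Esr1 (-0.99, SE 0.61, 2 of 4 acrylamide arrays well above background), Cebpa (-0.96, SE 0.72) and the interferon regulatory factor Irf8 (-0.58, SE 0.30). In night females they were those of Esr1 (-0.55, SE 0.61), the interferon gamma receptor chain Ifngr1 (0.30, SE 0.17), Il1r1 (0.29, SE 0.36) and Socs3, a feedback inhibitor of cytokine signals (-0.25, SE 0.16). Between night and morning in control females 8 were higher and 5 lower at night (48.1% called, beside 47.6% of all probes, so the share lay near that of the whole array). Rela (1.36, SE 0.29), Nfkbia (1.09, SE 0.28), Nfkb1 (0.82, SE 0.20) and Nfkb2 (0.78, SE 0.18) of the NF-kappaB system, Cebpd (1.04, SE 0.31), Irf8 (0.86, SE 0.30), Irf9 (0.71, SE 0.16) and Ifngr1 (0.57, SE 0.17) were higher. Lower were Hnf4a (-2.01, SE 0.28), the glucocorticoid receptor Nr3c1 (-1.59, SE 0.22), Socs1 (-1.40, SE 0.34), Socs3 (-1.15, SE 0.16) and Tnfrsf1a (-0.46, SE 0.15).

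Promoter windows of 300 bases (250 before the start and 50 after it) were given by RefSeq on GRCr8 for 3 of the 7 members, C3, C1r and Cfi, among 33469 windows. A script searched both strands for 5 motifs: TTCNNNGAA (gamma-activated site), TTGCNNAA (C/EBP), TGANTCA (AP-1), the interferon-stimulated response element and the kappaB site. The 250 bases before the start are shown for C3, which differed between night and morning, and for C1r, which moved with C1s and Serping1, as the only members with a match. Capitals mark the C/EBP match. The C3 stretch is chr9:2201340-2201589 on the minus strand and that of C1r chr4:159098763-159099012 on the plus strand.
C3 promoter: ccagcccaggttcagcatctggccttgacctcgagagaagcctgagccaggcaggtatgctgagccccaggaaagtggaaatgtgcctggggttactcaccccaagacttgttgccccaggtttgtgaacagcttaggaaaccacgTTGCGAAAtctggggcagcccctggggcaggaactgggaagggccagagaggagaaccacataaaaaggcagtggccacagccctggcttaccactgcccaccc
C1r promoter: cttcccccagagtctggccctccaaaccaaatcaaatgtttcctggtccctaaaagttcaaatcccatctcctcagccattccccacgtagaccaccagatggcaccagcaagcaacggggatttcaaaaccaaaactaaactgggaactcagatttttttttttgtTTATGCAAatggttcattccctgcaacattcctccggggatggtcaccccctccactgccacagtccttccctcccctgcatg
In C3 the match begins 104 bases before the start on the gene's strand, and in C1r 83 bases before it, on the opposite strand. A C/EBP match stood in 10.6% of all windows, and the other motifs in 8.87% (gamma-activated site), 3.92% (interferon-stimulated response element), 7.33% (AP-1) and 7.51% (kappaB), with 0 matches of these 4 in the 3 windows and none of any kind in that of Cfi. A match of letters is a description and not a site of binding.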

How the data were processed

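Total RNA of 24 thyroid samples was hybridised to 1-colour rat arrays. The deposited scanner files hold a processed signal per spot, an intensity after background removal by Agilent Feature Extraction 10.1.1.1, and flags of 0 or 1; build rn4 is named in the file headers. The deposited series matrix holds log2 values whose column medians are 0 and which follow log2 of the processed signal, a scale found by comparison; it served as an alternative. Non-uniform and outlier spots were removed, log2 signals averaged per probe (45 empty values), and the 75th percentile of each array subtracted. Probes well above background on at least 3 of 4 arrays of a group were tested (23414). The model had a mean per group over the 24 arrays (limma 3.58.1, R 4.3.3, 18 residual degrees of freedom), with 2-sided tests, Benjamini-Hochberg adjustment over all probes and a threshold of 0.05. Every adjusted p of a difference is limma's. Permutation tests drew 1e+05 resamples within groups. The fit was run on simulated data with independent normal scatter, equal in all groups for a given probe. Such data hold no arrays that stand apart, so they cannot show how the fit deals with such arrays.

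The members, lists and motifs were chosen with earlier results of these data known. All 7 members were named, with every probe; of the other lists, genes that passed and the 4 with the largest differences in each acrylamide comparison were named; likeness to Cfb was ranked by r, and 10 probes listed. Some genes that this rule names are not reported here. The leading probe of a gene has the highest mean. Names come from the newer of the 2 array annotations in the files, which differ for 3180 probes and for 0 of the members' probes. On each array 71.5% to 82.3% of spots exceeded background clearly, and the number of arrays limits precision. The night arrays belong to scan session 1, without saturated spots, the morning arrays to session 2, with 188 to 469 such spots. Replicate numbers did not pair the arrays: over 12 pairs of the same number the deviations correlated at -0.24 to 0.36, and 3 were over 0.1. Alternatives were background correction (normexp, offset 50), quantile normalization, no filter, the series matrix, replicate and slide blocks, muscle and adipocyte means as covariates, 1 probe per gene, arrays of the comparison alone, and leaving arrays out.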

Additional observations from a re-analysis of the deposited data

Results flagged for a closer look

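Over the 8 probes and 6 groups, 48 sets of 4 arrays were checked for an array far from the other 3, and 5 had such an array. For Cfb these were acrylamide females at night replicate 1 (5.35, the next array at 4.85), control females at night replicate 1 (4.28, next 4.63), control males at night replicate 3 (4.81, next 4.18) and acrylamide females in the morning replicate 1 (0.31, next 3.00). For C2 it was control males at night replicate 3 by probe A_44_P332606 (1.23, next 0.67), the same array as in the Cfb set of control males. About 1 in 20 independent sets would have such an array by chance. The sets here share arrays, and the morning acrylamide values chose Cfb, so the count cannot be set against that rate.

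All 4 acrylamide arrays of females lay above the controls for Cfb at night (0.40) and all 4 lay below them in the morning (-1.84). The difference between these effects was not tested, since the morning values chose the gene.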

How the results depend on the processing

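At night in females, and for the difference between the sexes, 0 probes were called by limma under every alternative and in every leave-one-out fit. In males at night 0 probes became 3 with normexp, 1 without the filter, 2 with the series matrix and 2 with the replicate block, and 0 to 8 when single arrays were left out. In morning females 429 became 218 with normexp, 1026 with quantile normalization, 111 without the filter, 18 with the series matrix, 94 with slide as a block, 961 with muscle and adipocyte means as covariates, 37 without acrylamide replicate 4 of night males and replicate 1 of morning females (the 2 arrays) and 0 with the arrays of the comparison alone; leaving out single arrays gave 2 to 2393, and the replicate block 326. Control males against control females gave 2, which became 0 with normexp and 1 with quantile normalization, and 0 to 3 with single arrays left out.

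Among the tested differences, signs turned for the following. Cfi in males at night (0.01) became -0.093 with the covariates and -0.16 without the 2 arrays, and -0.23 to 0.15 with single arrays left out; in females at night (-0.05) that range was -0.16 to 0.047. For the effect in males minus that in females, C3 became -0.011 with normexp and -0.14 without the 2 arrays (-0.17 to 0.16 with single arrays left out), Cfi -0.074 with the covariates and -0.11 without the 2 arrays (-0.18 to 0.20), and C1r 0.16 with the series matrix and 0.045 without the 2 arrays (-0.14 to 0.18). C2 in control males against control females ranged over -0.19 to 0.10. The cause was not tested. Between night and morning, Cfi lost its call with the series matrix (-0.52, adjusted p = 0.0949 in limma) and C1r gained one (0.64, adjusted p = 0.0315), as it did with the arrays of the comparison alone (0.38, adjusted p = 0.0203). The 3 pairs of members that passed did so with quantile normalization, without the 2 arrays and over the night arrays alone, the last chosen after seeing the data.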
